A study of Mus musculus with 30 samples.

Results

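The genes described are those of the amyloid precursor protein, its relatives and the enzymes that cut them: *App*, *Aplp1*, *Aplp2*, *Bace1*, *Bace2*, *Psen2*, *Ncstn*, *Aph1a* and *Psenen*. They were taken as a list of 9 named genes, with no threshold on their measured values, out of 49671 genes in the counts of the peptide study and 55263 genes in those of the antibody study. Each of the 9 genes was found in both studies and averaged 10 or more counts per heart in both, the limit set for testing. RNA was sequenced from the left ventricle of 30 male wild type C57BL6J mice, in 2 experiments that were run and analysed apart. In the peptide study, 7 mice were administered recombinant human Aβ42, the amyloid beta peptide of 42 residues, and 7 mice a scrambled peptide, ScrAβ42, by daily i.p. injection for 4 weeks, from 12 weeks of age by the labels. The dose is 1 mg of peptide per day in the labels, whereas the text of the study gives micrograms. In the antibody study, 8 mice were administered 3D6, an antibody that neutralises Aβ, and 8 mice a control antibody (Con). By the methods of the study these 16 mice received a high-fat diet, but by the deposited design they were given Aβ42, so what they share besides the antibody protocol is not settled by the labels. The mice carried no transgene, and the injected peptide is a product of the human protein, so that RNA from *App* is that of the mouse gene.

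Aβ is cut out of APP, a membrane protein made in most tissues, in 2 steps. A β-secretase, BACE1, sheds the ectodomain, and γ-secretase then cuts the remaining stub within the membrane. γ-Secretase is a complex of a presenilin, which holds the active site, with nicastrin, APH1 and PEN2, while α-secretases such as ADAM10 and ADAM17 cut within the Aβ sequence and so prevent its release. APLP1 and APLP2 are relatives of APP that are cut by the same enzymes but lack the Aβ sequence. In heart, both cardiomyocytes and other cells make APP, and APP isoforms that hold a protease inhibitor domain predominate outside neurons.

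The isoforms of APP differ by 3 exons that are each included or skipped, and the sequences of these exons are shown because the transcript counts of the antibody study separate them. They were read from the GENCODE transcripts on the minus strand of GRCm38, with the exon in capitals and 10 bases of the neighbouring exons in lower case. The 168-base exon, which encodes the Kunitz protease inhibitor domain, lies at chr16:85043576-85043743. The 57-base exon, which follows it and encodes a short stretch similar to the OX-2 antigen, lies at chr16:85040251-85040307. The 54-base exon lies at chr16:84971408-84971461, just upstream of the part that encodes Aβ, and transcripts that skip it encode the so-called L-APP forms, which can carry chondroitin sulfate. *Aplp2* has a 168-base exon of the same kind at chr9:31167561-31167728, also on the minus strand, with 114 of 168 bases (67.9%) identical to that of *App* in an ungapped alignment.
App 168-base exon: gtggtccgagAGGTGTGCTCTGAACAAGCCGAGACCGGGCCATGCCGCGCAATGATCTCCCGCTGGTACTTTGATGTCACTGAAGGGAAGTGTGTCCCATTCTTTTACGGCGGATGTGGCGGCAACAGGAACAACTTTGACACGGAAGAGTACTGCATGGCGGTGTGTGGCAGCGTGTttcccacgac
App 57-base exon: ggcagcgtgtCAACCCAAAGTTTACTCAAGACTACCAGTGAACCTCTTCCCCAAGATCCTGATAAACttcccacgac
App 54-base exon: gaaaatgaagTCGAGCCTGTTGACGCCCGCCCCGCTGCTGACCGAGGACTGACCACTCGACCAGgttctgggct
Aplp2 168-base exon: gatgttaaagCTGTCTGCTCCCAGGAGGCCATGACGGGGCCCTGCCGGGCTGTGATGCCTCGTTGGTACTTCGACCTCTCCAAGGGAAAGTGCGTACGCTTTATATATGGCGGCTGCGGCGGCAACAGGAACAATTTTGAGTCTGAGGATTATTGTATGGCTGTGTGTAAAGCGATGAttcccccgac

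The depth was similar across hearts, with total counts from 4478991 to 6015767 in the peptide study and from 6371811 to 8278366 in the antibody study. Expression is given as CPM, the count scaled to the size of the library after TMM normalization. Cardiomyocyte markers dominated every heart, with a summed level of at least 40367 CPM for 7 genes. Hearts differed in markers of other tissue, however. The sum of 5 atrial markers (*Sln*, *Myl7*, *Myl4*, *Bmp10* and *Mybphl*), which a left ventricle should hold at a low level, was between 3.81 and 3652 CPM in ScrAβ42 hearts, with a median of 10.5 CPM, and between 12.3 and 8387 CPM in Aβ42 hearts, with a median of 1154 CPM. It exceeded 1000 CPM in 5 hearts of the peptide study, namely mice Abeta42_3451, Abeta42_3455, Abeta42_3457, Abeta42_3458 and ScrAbeta42_3448, and in 1 heart of the antibody study, that of mouse Con_15. Genes of the mitochondrial genome took 12.9% to 22.2% of the counts of the peptide hearts and 26.0% to 37.9% among antibody hearts. Mouse Con_22, lowest in mitochondrial counts of the antibody study, also stood apart in its transcripts. In bulk tissue, more RNA per cell and more cells of a type cannot be told apart.

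No change in any of the 9 genes passed the test, with Aβ42 or with 3D6. With the quasi-likelihood test of edgeR and p-values adjusted over all genes (Benjamini-Hochberg), 0 of 9 genes had an adjusted p under 0.05 in either study, and 0 of 9 had an unadjusted p under 0.05. Among all 11985 genes tested in the peptide study the shares were 0.0% by adjusted and 6.51% by unadjusted p, and among 12146 genes in the antibody study they were 0.0% and 3.66%. DESeq2, the tool of the study, also called 0 of 9 genes in both studies, with 1 of 9 (*Aplp2*) at an unadjusted p under 0.05 for Aβ42 and 0 of 9 for 3D6. Over all genes it called 12 with Aβ42 and 0 with 3D6. The adjusted p-values of the 9 genes were between 0.763 and 0.997 with Aβ42 and between 0.944 and 0.994 with 3D6. With Aβ42, 8 genes had a higher and 1 a lower estimate, beside 50.5% of all genes with a higher one. The median log2 fold change was 0.06, beside 0.0016 over all genes. *App*, *Aplp1*, *Bace2* and *Ncstn* turned lower with an atrial marker score in the model. The median atrial marker sum was 10.5 CPM in ScrAβ42 and 1154 CPM in Aβ42 hearts. Peptide and atrial RNA can thus not be fully told apart in this design. With 3D6, 2 genes had a higher and 7 a lower estimate, beside 47.2% of all genes with a higher one. The median was -0.08, beside -0.01 over all genes. With the percentage of mitochondrial counts in the model, *Aplp1* and *Psenen* turned higher and *Aplp2* and *Bace1* lower. The groups did not overlap in 0 of 9 genes in either study, beside 0.0918% of all genes with Aβ42 and 0.0% with 3D6.

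**Figure D1:**
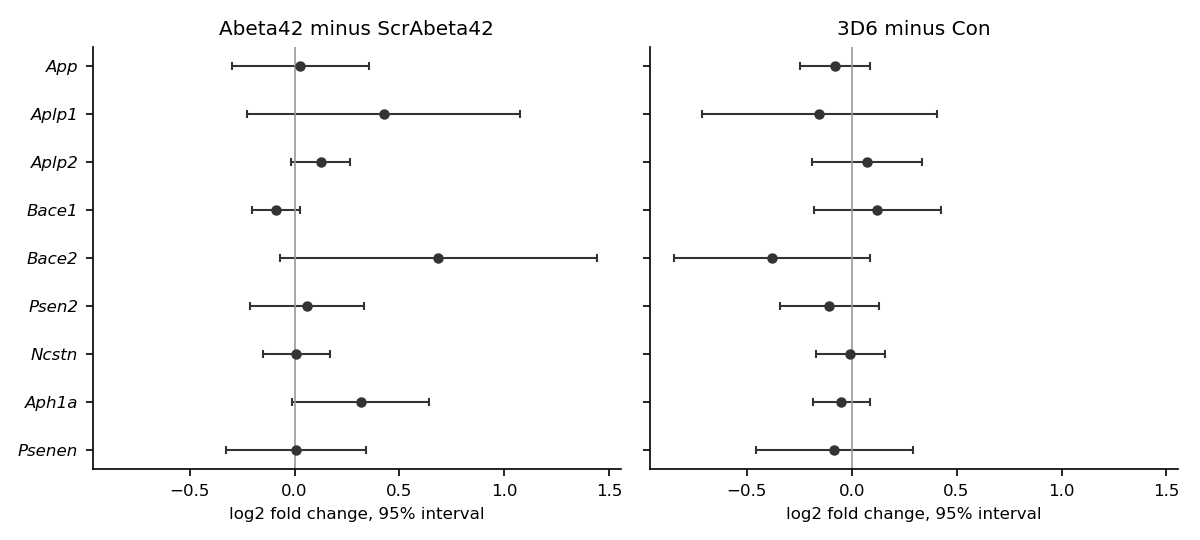
Log2 fold change of each gene (point) with its 95% interval from edgeR (bar), for Aβ42 against ScrAβ42 hearts (left; 7 against 7) and for 3D6 against Con hearts (right; 8 against 8). Every interval includes 0. It is widest for *Bace2* and *Aplp1*, which have the lowest levels per length, and narrowest for *Bace1* in the peptide study and *Aph1a* in the antibody study.

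Compared per length, *Aplp2* had the highest level of the 9 genes in every group. In ScrAβ42 hearts, *Aplp2* stood at 76.1 ± 4.80 CPM per kilobase of merged exons (SD, n = 7), ahead of *App* at 16.9 ± 4.25 and *Ncstn* at 16.4 ± 1.75, which overlapped each other. *Bace1* followed at 6.36 ± 0.184 CPM per kilobase, apart from its neighbours on either side, and *Psen2* at 3.38 ± 0.659 overlapped *Psenen* at 2.63 ± 0.447. *Aph1a* at 1.48 ± 0.337, *Aplp1* at 1.27 ± 0.387 and *Bace2* at 0.744 ± 0.358 CPM per kilobase came last, each overlapping the next. The Aβ42 hearts had the same order, with *Aplp2* first at 82.9 ± 5.22 and *Bace2* last at 1.19 ± 0.718 CPM per kilobase (SD, n = 7).

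In the antibody study the order was alike except for *Psenen* and *Aph1a*. In Con hearts, *Aplp2* came first at 40.8 ± 7.97 CPM per kilobase (SD, n = 8), *Psenen* and *Aph1a* followed at 16.9 ± 4.95 and 16.3 ± 1.04 and overlapped each other, and *App* at 11.7 ± 1.12 lay below the range of *Aph1a*. *Ncstn* at 8.82 ± 0.746, *Bace1* at 5.42 ± 1.09 and *Psen2* at 2.44 ± 0.243 CPM per kilobase were each apart from their neighbours in range. *Aplp1* at 0.853 ± 0.295 and *Bace2* at 0.596 ± 0.236 again came last and overlapped. When each transcript was instead divided by its own length, which the gene counts of the peptide study do not allow, *App* rose to the second place at 46.6 ± 4.66 CPM per kilobase of transcript, overlapping *Psenen* at 30.7 ± 8.84 (SD, n = 8). The merged exons of *App* span 13.0 kb, while App-203, which carried the largest share of its counts, has 3299 bases, so the place of *App* depends on the length used.

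**Figure D2:**
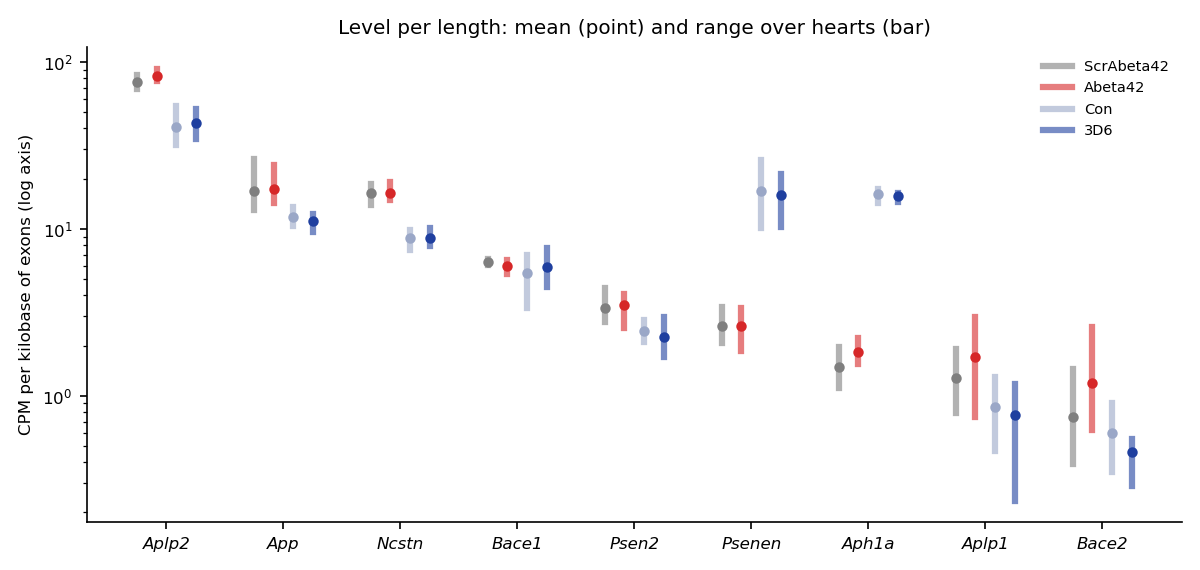
Level per length of each gene, in CPM per kilobase of merged exons on a log axis, in ScrAβ42, Aβ42, Con and 3D6 hearts (points, means; bars, lowest to highest heart; 7, 7, 8 and 8 hearts). *Aplp2* is highest in every group, and *Psenen* and *Aph1a* stand higher in the 2 groups of the antibody study than in those of the peptide study.

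The tables of the 2 studies were made and normalized separately, so levels set across them describe the tables and not the mice. Over 11361 genes tested in both, the median log2 ratio of Con to ScrAβ42 CPM was -0.58. For 7 of the 9 genes the ratio lay between 0.536 and 0.852. *Aph1a* was 10.99-fold and *Psenen* 6.45-fold higher in the antibody table, the 99.6 and 99.1 percentiles of all genes, and 1.51% of genes were more than 4-fold higher there. Both overlap a gene on the other strand, *Car14* for *Aph1a* and *U2af1l4* for *Psenen*, and *App*, *Bace1*, *Psen2* and *Ncstn* also overlap genes on the other strand. The cause of this difference between the tables was not tested.

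*App* (ENSMUSG00000022892) lies on the minus strand at chr16:84949685-85173766. In ScrAβ42 hearts its expression was 169.6 CPM at the lowest, 206.1 at the median and 341 at the highest, and in Aβ42 hearts 184.8, 196.5 and 316 CPM. The groups overlapped almost completely, and in each of them 1 or 2 hearts stood well above the others, ScrAbeta42_3448 at 341 CPM and Abeta42_3457 and Abeta42_3455 at 316 and 265 CPM. The means were 220.2 ± 55.2 and 224 ± 49.0 CPM (SD, n = 7 each), a log2 fold change of 0.03 (95% interval -0.30 to 0.35, adjusted p = 0.984 by edgeR). Its sign rested on single hearts, at 0.16 without ScrAbeta42_3448 and -0.075 without Abeta42_3457. Among antibody hearts, *App* was 135.0, 147.8 and 174.7 CPM at the lowest, median and highest of the Con hearts and 124.3, 144.2 and 159.4 CPM in 3D6 hearts. The highest values belonged to mice Con_8 and Con_11 and the lowest to mice 3D6_21 and 3D6_24, with the remaining hearts mixed. The log2 fold change was -0.08 (95% interval -0.24 to 0.09, adjusted p = 0.944), a fold of 0.947 with an interval from 0.844 to 1.06. It was -0.047 without Con_8, -0.049 without Con_11, -0.050 without 3D6_21 and -0.12 with the mitochondrial percentage in the model.

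*Aplp2* (ENSMUSG00000031996), the most abundant relative, lies on the minus strand at chr9:31149557-31211815. It was 402, 449 and 492 CPM at the lowest, median and highest of the ScrAβ42 hearts and 454, 476 and 536 CPM in Aβ42 hearts. All 7 Aβ42 hearts exceeded the ScrAβ42 median and 2 exceeded every ScrAβ42 heart. With Aβ42 the log2 fold change was 0.12 (95% interval -0.02 to 0.27, adjusted p = 0.783 by edgeR). DESeq2 gave 0.12 with an unadjusted p under 0.05 (adjusted p = 0.725). Without the 5 hearts rich in atrial RNA the estimate was 0.18 (adjusted p = 0.742 by edgeR), and it was 0.19 when an atrial marker score was added to the model (adjusted p = 0.546). Both had an unadjusted p under 0.05, and no gene of the table was called in either fit. With 3D6, *Aplp2* was 203.5, 235.3 and 308 CPM against 187.7, 239.0 and 318 CPM in Con hearts, a log2 fold change of 0.07 (95% interval -0.19 to 0.34, adjusted p = 0.944). It was 0.14 without mouse Con_8 and 0.037 without Con_22.

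*Aplp1* (ENSMUSG00000006651), which is best known from neurons, lies on the minus strand at chr7:30434982-30445535 and was close to the limit of the filter. It was 2.40, 3.70 and 5.73 CPM at the lowest, median and highest of the ScrAβ42 hearts and 2.24, 5.34 and 8.90 CPM in Aβ42 hearts, on 11 to 65 counts per heart. The Aβ42 hearts surrounded the ScrAβ42 hearts, with 2 above and 2 below every one of them. Aβ42 gave a log2 fold change of 0.43 (95% interval -0.23 to 1.08, adjusted p = 0.848 by edgeR), which was 0.23 without Abeta42_3457 and 0.019 without the 5 hearts rich in atrial RNA, and turned to -0.13 with an atrial marker score in the model. Among antibody hearts it was 0.709, 2.46 and 3.54 CPM with 3D6 and 1.40, 2.74 and 3.91 CPM in Con hearts, a log2 fold change of -0.15 (95% interval -0.72 to 0.41, adjusted p = 0.944). Leaving out 1 heart at a time moved it between -0.26 without 3D6_7 and -0.019 without 3D6_24.

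**Figure D3:**
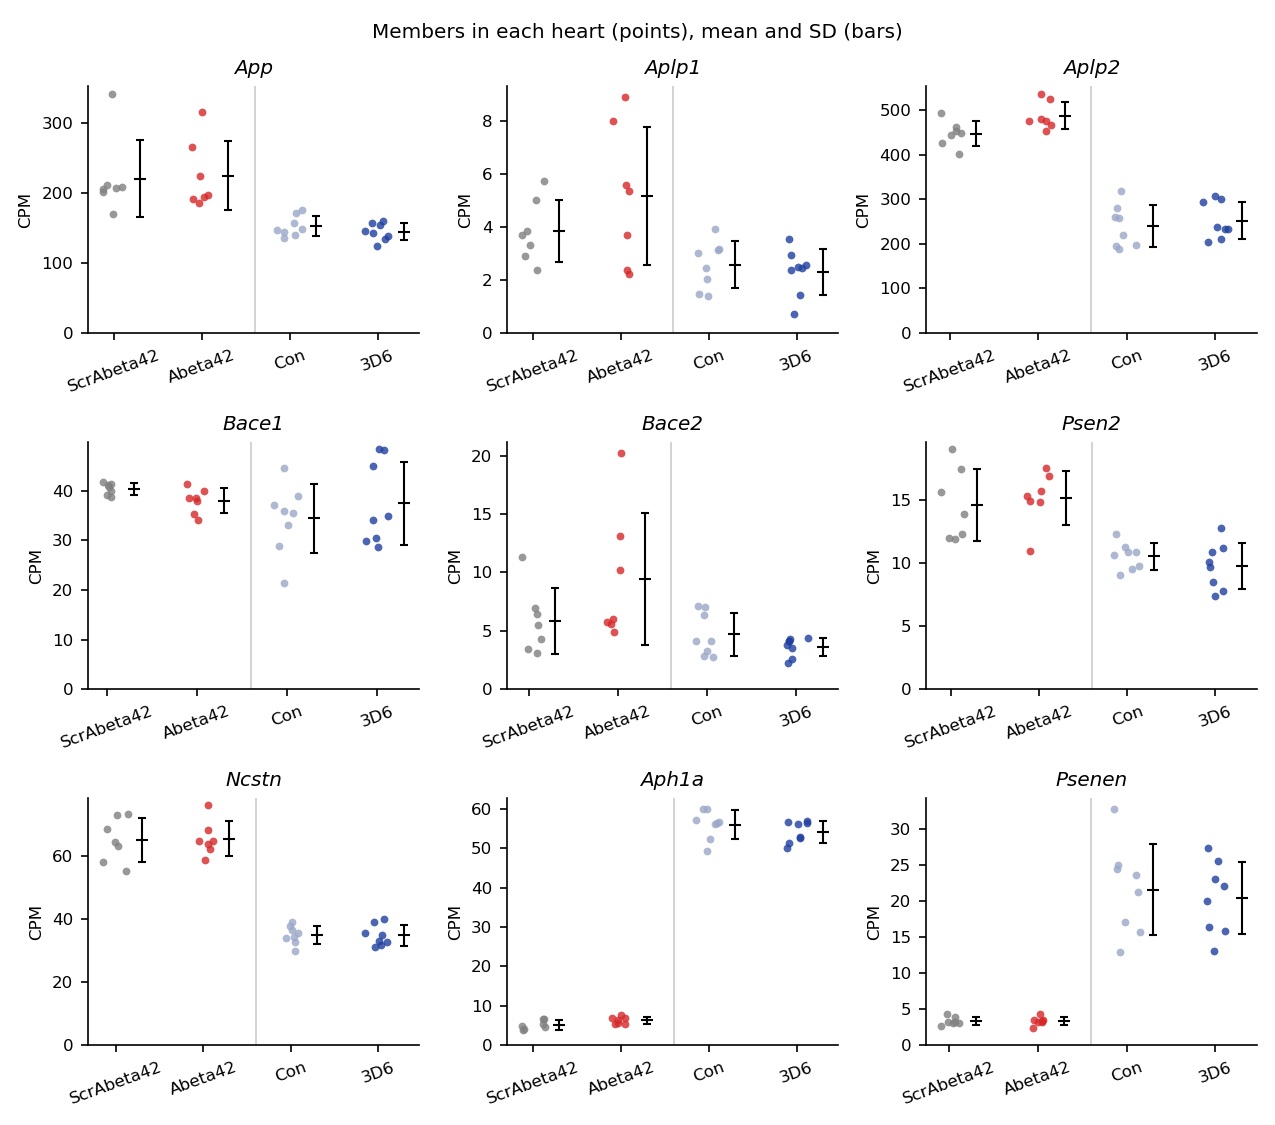
Expression of the 9 genes in every heart, in CPM, for ScrAβ42 (ScrAbeta42), Aβ42 (Abeta42), Con and 3D6 mice (points; the bars give mean and SD; 7, 7, 8 and 8 hearts). Within each study the groups overlap for all 9 genes, and the grey line separates the studies, whose tables were normalized apart. In Aβ42 hearts, *Bace2* spreads from 4.92 to 20.3 CPM.

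*Bace1* (ENSMUSG00000032086), the β-secretase that makes Aβ in brain, lies on the plus strand at chr9:45838580-45864399. It was 38.8, 40.7 and 41.8 CPM at the lowest, median and highest of the ScrAβ42 hearts and 34.1, 38.6 and 41.3 CPM in Aβ42 hearts. The ScrAβ42 hearts lay within a coefficient of variation of 2.89%, and 5 of 7 Aβ42 hearts fell below all of them. Aβ42 gave a log2 fold change of -0.09 (95% interval -0.20 to 0.02, adjusted p = 0.808 by edgeR). For 3D6, *Bace1* was 21.4, 35.8 and 44.5 CPM in Con hearts and 28.6, 34.4 and 48.5 CPM in 3D6 hearts. The 3D6 hearts fell into 3 at 45.0 CPM or more, above every Con heart, and 5 at 34.9 CPM or less. The log2 fold change was 0.12 (95% interval -0.18 to 0.42, adjusted p = 0.944). It was 0.053 without mouse Con_22, 0.060 without 3D6_4, 0.066 without 3D6_7 and 0.18 without Con_8. With the mitochondrial percentage in the model it was -0.046.

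*Bace2* (ENSMUSG00000040605), a close relative that cuts APP mainly within the Aβ sequence, lies on the plus strand at chr16:97356742-97442936. It was 3.09, 5.46 and 11.3 CPM at the lowest, median and highest of the ScrAβ42 hearts and 4.92, 5.97 and 20.3 CPM in Aβ42 hearts. The 4 highest hearts of the peptide study, Abeta42_3457 (20.3 CPM), Abeta42_3455 (13.1 CPM), ScrAbeta42_3448 (11.3 CPM) and Abeta42_3458 (10.2 CPM), were also the 4 with the highest atrial marker sums, between 3652 and 8387 CPM. With Aβ42 the log2 fold change was 0.69 (95% interval -0.07 to 1.44, adjusted p = 0.775 by edgeR). It was 0.21 without the 5 hearts rich in atrial RNA (adjusted p = 0.914) and -0.0045 with an atrial marker score in the model (adjusted p = 0.999), while leaving out mouse ScrAbeta42_3448 alone raised it to 0.94 (adjusted p = 0.365) and leaving out mouse Abeta42_3457 lowered it to 0.36. For 3D6, *Bace2* was 2.74, 4.13 and 7.13 CPM in Con hearts and 2.27, 3.93 and 4.36 CPM in 3D6 hearts. Here the 3 highest hearts were those of mice Con_22, Con_11 and Con_15, from 6.34 to 7.13 CPM, and every other heart was at 4.36 CPM or less. The log2 fold change was -0.38 (95% interval -0.85 to 0.09, adjusted p = 0.944).

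Of the γ-secretase genes, *Psen2* (ENSMUSG00000010609) encodes a presenilin and lies on the minus strand at chr1:180227004-180263438. It was 12.0, 13.9 and 19.1 CPM at the lowest, median and highest of the ScrAβ42 hearts and 10.98, 15.3 and 17.6 CPM in Aβ42 hearts. The lowest value of both groups came from mouse Abeta42_3458, while the other 6 Aβ42 hearts lay within the range of the controls. Aβ42 gave a log2 fold change of 0.06 (95% interval -0.21 to 0.33, adjusted p = 0.959 by edgeR). It was 0.18 without the 5 hearts rich in atrial RNA (adjusted p = 0.883) and 0.011 with an atrial marker score in the model (adjusted p = 0.996), and leaving out 1 heart at a time moved it between 0.015 without ScrAbeta42_3445 and 0.13 without ScrAbeta42_3441. Antibody hearts held 9.05, 10.8 and 12.3 CPM in Con hearts and 7.36, 9.92 and 12.8 CPM in 3D6 hearts, a log2 fold change of -0.11 (95% interval -0.34 to 0.13, adjusted p = 0.944). It was -0.17 without 3D6_17, -0.058 without 3D6_4, -0.063 without 3D6_7 and -0.029 with the mitochondrial percentage in the model.

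*Ncstn* (ENSMUSG00000003458) encodes nicastrin, the glycoprotein of the complex, and lies on the minus strand at chr1:172066013-172082795. Its levels were 55.5, 64.5 and 73.6 CPM at the lowest, median and highest of the ScrAβ42 hearts and 59.0, 64.8 and 76.2 CPM in Aβ42 hearts. With a log2 fold change of 0.01 (95% interval -0.15 to 0.17, adjusted p = 0.991 by edgeR), the group means lay closer together than for most of the other genes. The antibody study gave 29.8, 35.0 and 39.1 CPM in Con hearts and 31.3, 34.0 and 40.2 CPM in 3D6 hearts. The log2 fold change there was -0.01 (95% interval -0.17 to 0.16, adjusted p = 0.994).

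*Aph1a* (ENSMUSG00000015750) encodes the major APH1 subunit, which holds the complex together, and lies on the plus strand at chr3:95893969-95898288. In the peptide study it was 3.84, 4.76 and 6.75 CPM at the lowest, median and highest of the ScrAβ42 hearts and 5.34, 6.30 and 7.70 CPM in Aβ42 hearts, on 20 to 51 counts per heart. Every Aβ42 heart exceeded the ScrAβ42 median and 3 of 7 exceeded every ScrAβ42 heart. With Aβ42 the log2 fold change was 0.32 (95% interval -0.01 to 0.64, adjusted p = 0.763 by edgeR), the smallest adjusted p of the 9 genes. Without the 5 hearts rich in atrial RNA the estimate was 0.15 (adjusted p = 0.929), and with an atrial marker score in the model 0.34 (adjusted p = 0.747). On 313 to 425 counts per heart, *Aph1a* in antibody hearts was 49.5, 56.7 and 60.0 CPM in Con hearts and 50.1, 54.5 and 56.98 CPM in 3D6 hearts. The log2 fold change was -0.05 (95% interval -0.18 to 0.09, adjusted p = 0.944).

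*Psenen* (ENSMUSG00000036835) encodes PEN2, the smallest subunit, and lies on the minus strand at chr7:30561863-30563627. In the peptide study it was 2.64, 3.17 and 4.36 CPM at the lowest, median and highest of the ScrAβ42 hearts and 2.37, 3.35 and 4.29 CPM in Aβ42 hearts, on 12 to 25 counts per heart. The estimate was 0.01 on the log2 scale (95% interval -0.33 to 0.34, adjusted p = 0.997 by edgeR). Among antibody hearts it spread more widely than the other subunits, at 12.9, 22.4 and 32.8 CPM in Con hearts and 13.0, 21.05 and 27.4 CPM in 3D6 hearts, which gave a log2 fold change of -0.08 (95% interval -0.46 to 0.29, adjusted p = 0.951). Without mouse Con_22, the highest heart, it was 0.032.

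Transcripts could be told apart in the antibody study only. Of the 11 annotated transcripts of *App*, 5 that encode complete proteins carried nearly all counts, and all 5 were tested. App-203, of 752 residues, holds the 168-base and 57-base exons and skips the 54-base exon, and it took a mean share of 45.2% of the *App* counts. App-202, of 751 residues, holds the 168-base and 54-base exons and took 31.4%. App-201, the form of 695 residues that is typical of neurons and holds neither the 168-base nor the 57-base exon, took 10.9%. App-204, of 733 residues, holds only the 168-base exon and took 7.88%, and App-206, of 770 residues with all 3 exons, took 3.81%. The estimate for App-204 was unstable, at 0 in 3 of 8 3D6 hearts and 4 of 8 Con hearts and up to 317 counts in mouse Con_22.

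**Figure D4:**
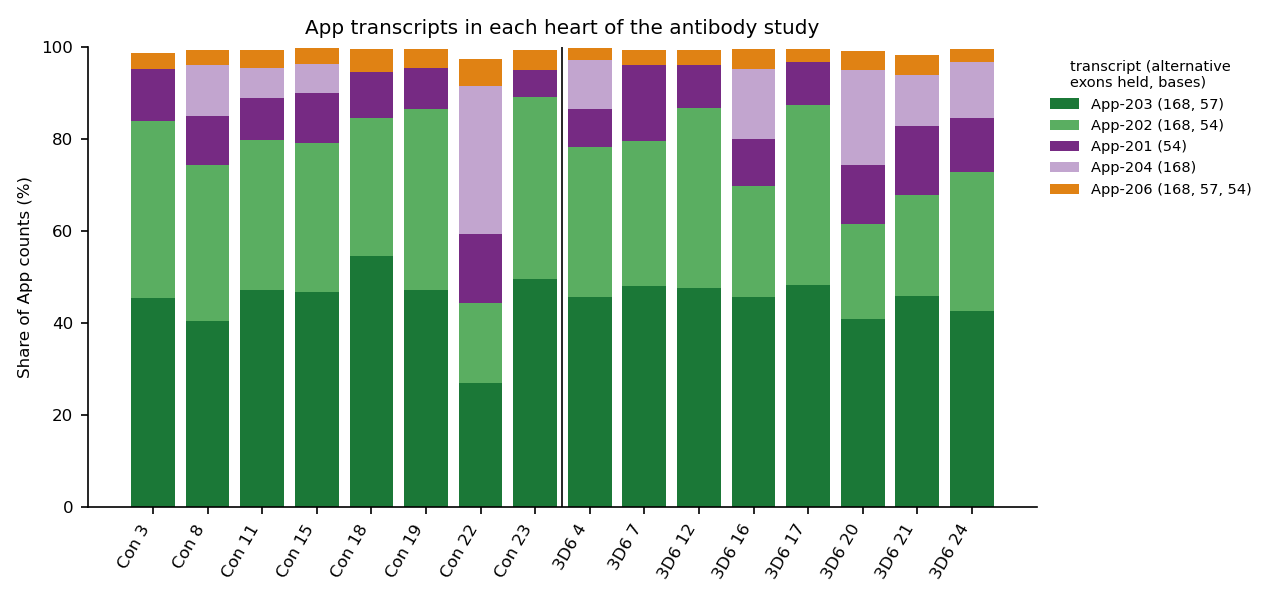
Share of the *App* counts, in percent, that each of 5 transcripts took in every heart of the antibody study (bars, 8 Con hearts on the left and 8 3D6 hearts on the right; the legend gives the alternative exons each transcript holds, by length in bases). App-203 is the largest in 15 of 16 hearts, and mouse Con_22 has App-204 as its largest part at 32.3%.

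No transcript of the 5 passed the test for 3D6. By edgeR's quasi-likelihood test over 20729 transcripts, 0 of 5 were called by adjusted or unadjusted p, and over all transcripts 0.0% and 2.40% were. DESeq2 was not run on transcripts. The smallest p was that of App-206, at 4.99 CPM in 3D6 and 6.25 CPM in Con hearts, with a log2 fold change of -0.32 (95% interval -0.67 to 0.02, adjusted p = 1.00). App-203 had a log2 fold change of -0.05 (95% interval -0.32 to 0.22) and App-202 of -0.22 (95% interval -0.64 to 0.20). As shares, App-203 took 40.9%, 45.8% and 48.2% at the lowest, median and highest of the 3D6 hearts and 27.0%, 46.9% and 54.7% in Con hearts. The mean share differed by 0.841 percentage points for App-203, 1.44 for App-201, 1.71 for App-204 and -3.08 for App-202, with adjusted p-values between 0.811 and 0.836 over these 4 (two-sided exact permutation test over 12870 arrangements of 8 against 8 hearts). These differences depended in part on mouse Con_22. Without it App-203 turned to -1.70 points, and the others grew in size to 2.11 for App-201, 5.32 for App-204 and -5.30 for App-202. Leaving out 3D6_20 instead brought App-204 to 0.0030 points, and leaving out Con_18 brought App-203 to 2.26 points. The simulated counts recovered 27% of transcripts changed 2-fold, against 89.5% of genes, so the transcript test detects less than the gene test.

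Summed over the complete transcripts, the 168-base exon of *App* was present in 89.0 ± 2.80% of counts (SD, n = 16), from 83.5% to 94.2%. This share varied least of the exons. The 57-base exon was present in 49.3 ± 5.58%, from 33.8% in mouse Con_22 to 59.9% in mouse Con_18, and the 54-base exon in 46.5 ± 5.25%, from 37.9% to 53.9%. *Aplp2* held its own 168-base exon in 66.8 ± 10.2% of coding counts, from 31.3% in mouse Con_22 and otherwise from 62.3% to 75.7%. It held its 36-base exon, which lies at chr9:31156190-31156225, in 40.4 ± 3.51%. The shares in 3D6 and Con hearts differed by -1.43 and 0.0826 percentage points for the 168-base and 57-base exons of *App*, by -2.44 points for its 54-base exon, and by 6.35 and -0.796 points for the 168-base and 36-base exons of *Aplp2*. The adjusted p-values of these 5 comparisons were between 0.606 and 0.977 (two-sided exact permutation test). With 1 heart left out at a time, the *App* differences ranged from -2.13 to -0.743 points (168-base exon) and from -3.67 to -1.39 points (54-base exon). That of the 36-base exon of *Aplp2* ranged from -1.84 to 0.123 points and so turned sign. Without mouse Con_22 the difference in the 57-base exon of *App* was -2.14 points. For the 168-base exon of *Aplp2* it was 1.73 points (exact permutation p = 0.401), and without mouse Con_15 it was 8.07 points (p = 0.0440 before adjustment). Control mouse 22 also had 61.6% of its *Aplp2* counts on a transcript with a retained intron, Aplp2-207, and 51.9% of its *Psen2* counts on a processed transcript, Psen2-208, at which the other 15 hearts stood at 0.

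In most other members a single transcript took most of the counts, as a mean over hearts. Ncstn-201 took 93.1% of the *Ncstn* counts, Psenen-201 97.6% of those of *Psenen*, Psen2-205 87.2% and Bace1-201 85.2% of their genes. Single hearts departed from these means. Psen2-205 fell to 43.0% in a Con heart. Bace1-202 was at 0 in 4 3D6 and 6 Con hearts but reached 24.1% in another Con heart. *Aph1a* was divided between Aph1a-201 at 74.4% and Aph1a-202 at 22.0%, both protein coding. Their log2 fold changes with 3D6 were -0.02 and -0.05. Of the 19 transcripts of the 9 genes that passed the filter, none had an adjusted p under 0.05 or an unadjusted p under 0.05.

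From heart to heart, *App* varied with several lists of cell type markers. For these comparisons the group mean was removed from each log2 CPM value, and p-values are from 100000 permutations of hearts within a study. In the peptide study, *App* followed the score of 5 fibroblast markers (Pearson's r = 0.96, adjusted p = 0.00028; Spearman's rho = 0.90, adjusted p = 0.00056; n = 14; permutation test) and that of 5 macrophage markers (r = 0.87, adjusted p = 0.0011; rho = 0.87, adjusted p = 0.0013), and ran opposite to that of 7 cardiomyocyte markers (r = -0.91, adjusted p = 0.00063; rho = -0.83, adjusted p = 0.0020). Without mouse Abeta42_3457 and mouse ScrAbeta42_3448, the 2 hearts farthest in *App*, r was 0.87, 0.86 and -0.86. It also followed the adipocyte markers (r = 0.60, adjusted p = 0.0331; rho = 0.60, adjusted p = 0.0399) and ran opposite to the endothelial markers (r = -0.63, adjusted p = 0.0331; rho = -0.60, adjusted p = 0.0399; n = 14; permutation test), with r of 0.23 and -0.24 without those 2 hearts. The mesothelium markers passed by rho only (rho = 0.63, adjusted p = 0.0398; r = 0.46, adjusted p = 0.125; permutation test). The summed fibroblast markers ranged from 1678 to 5991 CPM in ScrAβ42 and from 1546 to 4432 CPM in Aβ42 hearts, highest in the same 3 hearts as *App*. In the antibody study the fibroblast sums were within 1200 and 2294 CPM and *App* did not follow them (r = 0.26, adjusted p = 0.365; rho = 0.20, adjusted p = 0.487; n = 16; permutation test). It ran opposite to the cardiomyocyte markers there too (r = -0.68, adjusted p = 0.0126; rho = -0.75, adjusted p = 0.0034), but also to the macrophage markers (r = -0.67, adjusted p = 0.0144; rho = -0.70, adjusted p = 0.0090) and mural markers (r = -0.58, adjusted p = 0.0331; rho = -0.58, adjusted p = 0.0398). Without mice Con_8 and Con_11, the highest in *App*, r was 0.28 for fibroblast, -0.65 for cardiomyocyte, -0.56 for macrophage and -0.60 for mural markers. Mouse 3D6_21, the lowest in *App* at 124.3 CPM, was kept. These are 14 correlations of hearts that each come from 1 library, and they were chosen after the data were seen. They are given with TMM only, and how they depend on the scaling is not given here. No marker of these lists was at 0 in every heart. The part of these cells in the level of *App* was not tested, nor was the difference between the studies.

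**Figure D5:**
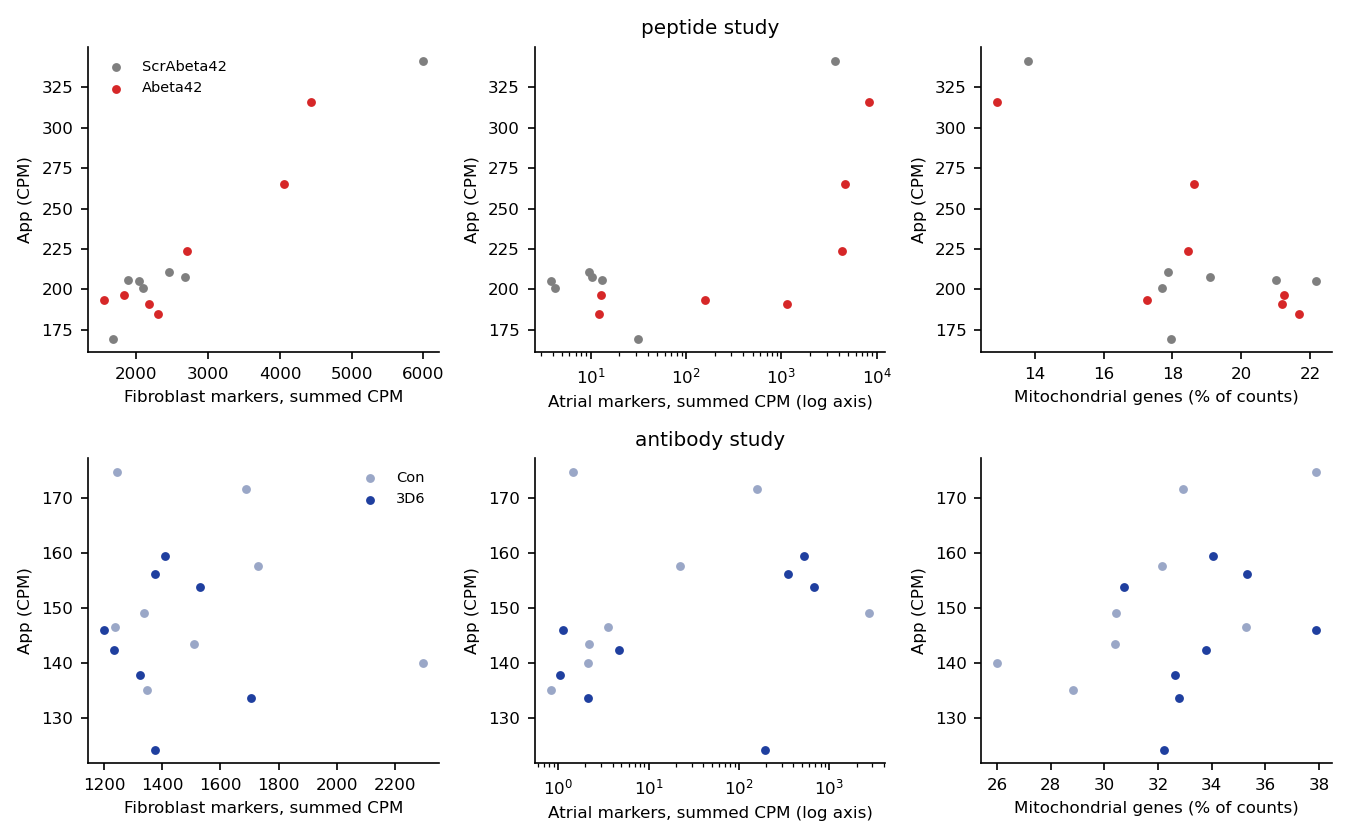
*App* in every heart, in CPM, against the summed CPM of 5 fibroblast markers (left), the summed CPM of 5 atrial markers on a log axis (middle) and the percentage of counts on mitochondrial genes (right), in the peptide study (top; 14 hearts) and the antibody study (bottom; 16 hearts), each point a heart. In the peptide study the 3 hearts highest in *App* are the 3 highest in fibroblast markers and 3 of the 4 highest in atrial markers, and the 16 hearts of the antibody study lie between 124.3 and 174.7 CPM of *App*.

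The 4 peptide hearts highest in atrial markers were also the 4 highest in *App*. ScrAbeta42_3448, Abeta42_3457, Abeta42_3455 and Abeta42_3458, with 3652, 8387, 4690 and 4342 CPM of atrial markers, had *App* at 341, 316, 265 and 223.8 CPM, and the next heart was at 210.7 CPM. Abeta42_3451 had 1154 CPM of atrial markers and *App* at 190.7 CPM. Adding the mean z-score of these markers to the model, *App* was estimated at -0.25 with Aβ42, with an unadjusted p under 0.05 (adjusted p = 0.609 by edgeR). High atrial sums came mostly from Aβ42 hearts, so this estimate cannot fully separate peptide from atrial RNA. Without the 5 hearts rich in atrial RNA, a comparison of 3 against 6 hearts chosen after the data were seen, the estimate was -0.06 (adjusted p = 0.921).

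The correlations of *App* with the other members depended on the scaling. With TMM, over 8 pairs with *App* in each study, 16 in all, those that passed adjustment in the peptide study were *Bace2* (r = 0.90, rho = 0.87), *Ncstn* (r = 0.74, rho = 0.75) and *Aplp1* (r = 0.65, rho = 0.66), with adjusted p-values of 0.00032, 0.0103 and 0.0287 for r and 0.0021, 0.0156 and 0.0325 for rho (n = 14, permutation test). Without the 2 hearts farthest in *App* r was 0.81, 0.50 and 0.59. Within the 9 hearts low in atrial RNA r was 0.54, 0.47 and 0.05, and none passed in this smaller set. In the antibody study, *App* rose and fell with *Aplp2* (r = 0.74, rho = 0.76, adjusted p = 0.0103 for r) and *Bace1* (r = 0.66, rho = 0.67, adjusted p = 0.0204 for r) and opposite to *Psenen* (r = -0.70, rho = -0.68, adjusted p = 0.0117 for r; n = 16, permutation test). By rho, *Ncstn* passed as well (rho = 0.58, adjusted p = 0.0485), though not by r (0.51, adjusted p = 0.0846; n = 16, permutation test). Without mice Con_8 and Con_11, r of *Aplp2*, *Bace1* and *Psenen* was 0.67, 0.61 and -0.58. Without mouse Con_15 these 3 pairs passed again, at r of 0.74, 0.66 and -0.70. With CPM of the total count in place of TMM, *App* in the peptide study followed *Aplp2* (r = 0.71) and *Bace1* (r = 0.78) as well as *Bace2* (r = 0.93), *Ncstn* (r = 0.91) and *Aplp1* (r = 0.74), with adjusted p-values between 0.00016 and 0.0153, whereas with TMM r was -0.25 for *Aplp2* and -0.29 for *Bace1* (n = 14, permutation test). With the atrial marker score also removed from the TMM values, the peptide pairs that passed were *Aplp2* (r = 0.74) and *Bace2* (r = 0.75). On CPM of the total count the antibody pairs with *Aplp2*, *Bace1* and *Psenen* were at r of 0.56, 0.48 and -0.32 and did not pass, and *Ncstn* did (r = 0.58, adjusted p = 0.0466; n = 16, permutation test). Whether the correlations differ between the studies was not tested. The change of scaling shifts all genes of a heart by the same factor. By the lower of their 2 correlations with *App* under TMM, *Ncstn* stood at place 460 and *Bace2* at place 1871 of 11360 genes. That order takes both studies together, whereas pairs were tested within each study. How many of all genes reach such an r within a study is not given here. The pairs that passed can therefore not be read as particular to the members.

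Several members were ordered in the antibody study by the percentage of counts on mitochondrial genes, a comparison chosen after the data were seen. How many of all genes follow it as closely is not given here, so this order cannot be read as particular to the members. Over 18 pairs of a member and this percentage, *Aplp2* had r = 0.90 and rho = 0.96, *Bace1* r = 0.86 and rho = 0.88, *Psenen* r = -0.84 and rho = -0.75, *Psen2* r = -0.58 and rho = -0.53, *Ncstn* r = 0.68 and rho = 0.66, and *App* r = 0.57 and rho = 0.66 (adjusted p for r of 0.00018, 0.00024, 0.00018, 0.0434, 0.0147 and 0.0434, and for rho of 0.00018, 0.00063, 0.0070, 0.0944, 0.0246 and 0.0246; n = 16, permutation test). The order of *Psen2* thus did not pass by rho. Without mice Con_8 and Con_22, the hearts farthest in this percentage once group means were removed, r was 0.88, 0.79, -0.71, -0.64, 0.54 and 0.37. These values are with TMM, whose factor was 1.10 in Con_22, the lowest in this percentage, and 0.915 in 3D6_4, the highest. How they depend on the scaling is not given here. The 3 hearts of 3D6 mice that exceeded every Con heart in *Bace1* (3D6_4, 3D6_7 and 3D6_12) had 34.0% to 37.9% of counts on mitochondrial genes, and mouse Con_22, lowest in *Bace1* at 21.4 CPM and highest in *Psenen* at 32.8 CPM, had the lowest percentage of all, 26.0%. Among peptide hearts, *Aplp2* had r = 0.60 and rho = 0.62, *Aplp1* r = -0.60 and rho = -0.48, *Bace2* r = -0.65 and rho = -0.25 and *App* r = -0.74 and rho = -0.42 (adjusted p for r of 0.0434, 0.0434, 0.0338 and 0.0147, and for rho of 0.0637, 0.159, 0.460 and 0.226; n = 14, permutation test), and these were 0.64, -0.39, -0.13 and -0.17 for r without mouse Abeta42_3457 and mouse ScrAbeta42_3448. With this percentage as a covariate, the estimates of 3D6 against Con became -0.06 for *Aplp2*, -0.05 for *Bace1* and 0.17 for *Psenen*, all opposite in sign to those without it and none called.

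Among 11360 other genes tested in both studies, those most like *App* were chosen by the lower of their 2 correlations with it across hearts. They were *Sulf2* (r = 0.94 over 14 hearts and 0.85 over 16), a sulfatase of extracellular heparan sulfate, *Golim4* (0.96 and 0.83), a Golgi membrane protein, *Tenm3* (0.86 and 0.83), a teneurin, *Nid1* (0.83 and 0.85), the basement membrane protein nidogen, and *Amotl1* (0.82 and 0.84), an angiomotin-like junction protein. Of the other members, *Ncstn* ranked highest at place 460, with 0.74 and 0.51, and *Psenen* lowest at place 9474. None of these 5 genes had an adjusted p under 0.05 in either study, with log2 fold changes between -0.20 and 0.16 with Aβ42 and between -0.24 and 0.03 with 3D6.

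Another 40 genes that act on APP or carry it through the cell were examined beside the members, among them α-secretases, adaptors, sorting receptors and modulators of γ-secretase. Of these, 33 were tested for Aβ42 and 34 for 3D6, and 0 were called by edgeR or DESeq2 in either. With Aβ42, 17 had a higher and 16 a lower estimate, with 1 higher and 2 lower at an unadjusted p under 0.05, and a median log2 fold change of 0.00 beside 0.00 over all genes. With 3D6, 18 were higher and 16 lower, with 1 lower at an unadjusted p under 0.05, and a median of 0.00 beside -0.01 over all genes. The share at an unadjusted p under 0.05 is thus to be read beside 6.51% and 3.66% of all genes.

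The 3 genes at an unadjusted p under 0.05 with Aβ42 were *Adam17*, *Apbb2* and *Sort1*, and that with 3D6 was *Mapk8ip1*. *Adam17*, an α-secretase, was 36.4, 40.5 and 47.7 CPM at the lowest, median and highest of the ScrAβ42 hearts and 30.8, 35.4 and 40.8 CPM in Aβ42 hearts, a log2 fold change of -0.24 (adjusted p = 0.658 by edgeR). *Apbb2*, an adaptor that binds the APP tail, was 30.3, 37.2 and 41.2 CPM in ScrAβ42 and 27.1, 30.8 and 34.6 CPM in Aβ42 hearts, a log2 fold change of -0.27 (adjusted p = 0.641). The groups overlapped for both genes, and with 3D6 their log2 fold changes were 0.03 and -0.01. *Sort1*, the sorting receptor sortilin, was 38.8, 51.6 and 148.4 CPM in ScrAβ42 and 46.6, 78.7 and 290 CPM in Aβ42 hearts, a log2 fold change of 0.88 (adjusted p = 0.754) with a coefficient of variation of 58.7% and 72.7% within the groups. With 3D6 its log2 fold change was 0.21 (adjusted p = 0.944 by edgeR), and Con hearts ranged from 17.7 to 110.9 CPM. *Mapk8ip1*, a kinesin adaptor that binds APP, had a log2 fold change of 0.41 with Aβ42 (adjusted p = 0.763) and of -0.43 with 3D6, where it was 3.95, 6.53 and 8.58 CPM in Con and 3.36, 4.66 and 6.25 CPM in 3D6 hearts (adjusted p = 0.944). *Itm2a*, of the family of *Itm2b*, whose protein binds APP, had log2 fold changes of 0.36 and -0.41, with adjusted p-values of 0.775 and 0.944.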

How the data were processed

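Left ventricular total RNA libraries (TruSeq Stranded) of 30 mice were sequenced. The authors trimmed the reads and quantified them against mouse transcripts with Salmon. They deposited whole-number counts per Ensembl gene for the peptide study, and estimated counts per Ensembl transcript for the antibody study, neither of them normalized. How the gene counts were made from transcripts is not given in the sources used here. Samples were grouped by their titles, and 1 column of the peptide counts that matched no labelled sample was not used.

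Transcripts (142647) were summed to genes through GENCODE vM21 (GRCm38), a release other than that of the study but of the same build, and rounded. The annotation lists 99.48% of the genes and 99.21% of the transcripts, and 0.381% of the antibody counts belonged to unlisted transcripts. Genes that averaged 10 or more counts per heart were tested, each study alone, with the quasi-likelihood test of edgeR 4.0.16 in R 4.3.3, two-sided, with TMM normalization and Benjamini-Hochberg adjustment over all genes. Intervals are at 95%. Levels are CPM, and log2 CPM used a prior count of 2. Replicates are separate mice. Shares of transcripts were compared by exact permutation tests over hearts, correlations by 100000 permutations, with scipy 1.17.1 and numpy 2.4.6.

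On simulated counts with 200 features changed 2-fold (a log2 size of 1), the test recovered 80% in the peptide design (11891 genes, 4 called falsely), 89.5% in the antibody design (12089 genes, 7 called falsely) and 27% among antibody transcripts (19692 transcripts, 3 called falsely). Depth, which limits the precision of low genes along with the spread between mice, was between 4478991 and 8278366 counts per heart.

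The members (named genes, chosen by no threshold on their values), the list of 40 genes and the marker lists were chosen with earlier results of these data known. Named genes were the 9 members, the listed genes with an unadjusted p under 0.05 in either study and the 2 with the largest absolute change per study, and the 5 genes most like *App*. Alternatives were DESeq2 1.42.0, RLE size factors, no filter, an atrial marker score (mean z-score) or the percentage of mitochondrial counts as a covariate, and leaving out each heart. Shares by exon, correlations with marker scores and mitochondrial counts, level by transcript length and leaving out 5 hearts together were added after the data were seen. Protein sequences were not used here. Genes that overlap others on the other strand (*App*, *Bace1*, *Psen2*, *Ncstn*, *Aph1a* and *Psenen*) were counted by mapping to transcripts of a stranded library, and the strand setting is not given in the sources used here.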

Additional observations from a re-analysis of the deposited data

Results flagged for a closer look

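A sample far from the others of its group, by the size of its gap to the nearest heart, was found in 5 of 54 sets of values examined. Chance alone would mark about 1 in 20 of independent sets. These sets reuse the same hearts and some hold values of 0, so these rates cannot be compared. *App* was 341 CPM in mouse ScrAbeta42_3448, with the next heart at 210.7 CPM. *Psen2* was 10.98 CPM in mouse Abeta42_3458, with the next lowest heart at 14.8 CPM. The other 3 belong to mouse Con_22, and the 3 values are not independent of each other. Its share of App-204 was 32.3%, with the next heart at 11.2%, its share of App-202 was 17.4%, with the next lowest at 29.8%, and its 168-base exon of *Aplp2* was present in 31.3%, with the next lowest at 62.3%. The same heart had the lowest percentage of mitochondrial counts, 26.0%, and the highest sums of fibroblast (2294 CPM), endothelial (947 CPM), macrophage (103 CPM) and Schwann and neuronal (33.7 CPM) markers of all 16 antibody hearts. What sets it apart was not tested.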

How the results depend on the processing

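No member, no *App* transcript or share and no gene of the list of 40 was called under any alternative run. Over all genes of the peptide study, DESeq2 called 12 against 0, and leaving out each heart gave 0 to 3, with 3 without mouse Abeta42_3452 and 1 without ScrAbeta42_3448. No paired analysis was possible because the replicate numbers identify single mice and no number is shared between the groups compared. Adjusting the peptide study for an atrial score, estimates turned sign for *App* (-0.25), *Aplp1* (-0.13), *Bace2* (-0.0045) and *Ncstn* (-0.081). Without the 5 hearts rich in atrial RNA they turned for *App* (-0.065) and *Ncstn* (-0.052). In the antibody study, the mitochondrial percentage turned *Aplp1* (0.071), *Aplp2* (-0.063), *Bace1* (-0.046) and *Psenen* (0.17), and no filter turned *Ncstn* (0.0043). Leaving out each heart, log2 fold changes of the peptide study ranged from -0.075 to 0.16 for *App*, -0.032 to 0.039 for *Ncstn* and -0.062 to 0.077 for *Psenen*, and those of the antibody study from -0.034 to 0.025 for *Ncstn*, -0.16 to 0.032 for *Psenen*, -0.13 to 0.0031 for App-203 and -0.15 to 1.10 for App-204, while the share difference of App-203 ranged from -1.70 to 2.26 points. The other members kept their sign in every such fit. Of the correlations with *App*, 6 passed adjustment by r, and 3 did without the hearts rich in atrial RNA. On CPM of the total count, r turned to 0.71 for *Aplp2*, 0.78 for *Bace1*, 0.17 for *Aph1a* and 0.37 for *Psenen* in the peptide study and to 0.32 for *Aplp1* and 0.074 for *Aph1a* in the antibody study. With the atrial score removed, it turned to 0.74 for *Aplp2* and 0.30 for *Psenen* in the peptide study, and without the hearts rich in atrial RNA to 0.63 for *Aplp2*. The cause of these turns was not tested. CPM of the total count shifts all genes of a heart by the same factor, so turns under it are not particular to the members. Mean counts per heart were 17.8 to 43.0 for *Psenen*, *Aplp1*, *Aph1a* and *Bace2* in the peptide study, and of these *Aplp1* and *Bace2* also had a biological coefficient of variation of 0.37 and 0.44, the largest of the 9 genes.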
